A study of Danio rerio with 12 samples.

Results

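The 300 probe sets with the highest mean intensity in the adult zebrafish pineal gland were taken from 10795 probe sets that carry 1 gene symbol, ranked by the mean of their log2 quantile-normalized intensities over all 12 arrays of the series. They stand for 293 genes, since COX1 had 3 probe sets among them and 5 other genes, tubb4b, mdh1aa, rps27.1, khdrbs1a and tubb2b, had 2 each. A probe set is a group of short probes for 1 transcript, and its intensity is the brightness of the labelled RNA bound to it, on the authors' linear scale. Every pool came from Tg(aanat2:EGFP)Y8 transgenic adults, males and females of 0.5 to 1.5 years, raised in 12 h of light and 12 h of darkness at 28 °C and sampled in constant darkness. Each array holds 1 pool of 12 glands, and pools were taken every 4 h over 48 h at circadian times (CT) 14, 18, 22, 2, 6 and 10 of 2 daily cycles, so each time has 2 arrays. The transgene, in which the aanat2 promoter drives a fluorescent protein, was carried by all fish, and no sample without it was included. No light-treated or non-pineal sample was analysed here.

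The pineal gland of fish is itself a light sensor. Its photoreceptor cells carry opsins and a phototransduction cascade like that of retinal rods and cones, and they make melatonin from serotonin at night under an internal clock. Projection neurons, glial cells and blood vessels lie among them, and skin, skull and meninges lie close by. In RNA from whole glands, fewer cells of a type and less RNA per cell cannot be told apart.

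The rank is a description of these arrays and was not tested. Probe sets differ in how strongly they bind, and the label was made by 2 rounds of amplification from the 3' end, so a higher rank does not mean a more abundant transcript. The range from rank 1 to rank 300 was 17.8-fold in mean intensity. Just inside the limit were csnk1db at rank 299 and atp6v1g1 at rank 300, both with a mean log2 intensity of 10.72. Just outside were soul3 at rank 301, also at 10.72, and nars1 at rank 302 with 10.71. The order near the limit is therefore finer than the spread between arrays, which was 0.37 (SD, n = 12) for atp6v1g1 and 0.47 for soul3. On single arrays, 157 of the 300 probe sets were among that array's own highest 300 on all 12 arrays, 286 on at least 6 and 14 on fewer than 6. A further 233 probe sets entered the highest 300 of at least 1 array.

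**Figure D1:**
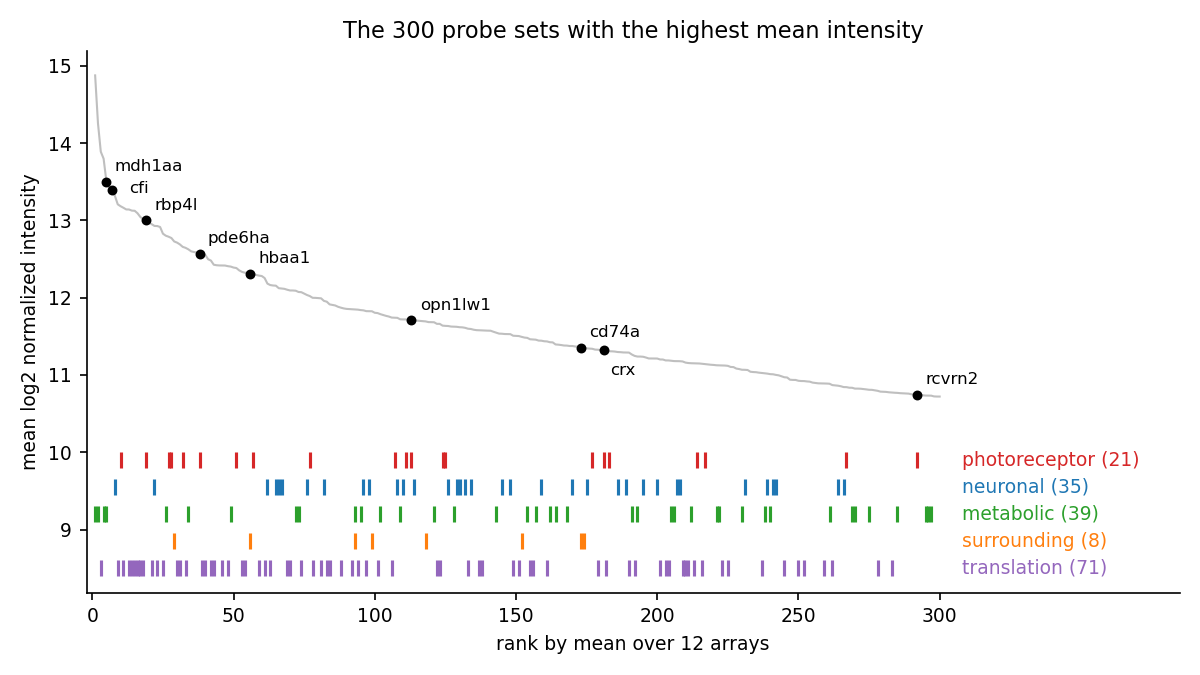
The mean log2 normalized intensity (vertical axis) of the 300 probe sets against their rank (horizontal axis), with 9 named genes as points. The coloured ticks below mark the ranks of photoreceptor, neuronal, metabolic, surrounding-tissue and translation genes, with hand-assigned members included and the number of probe sets in parentheses, and the curve is steepest over the first few ranks.

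The array of CT6 in the second cycle stood apart from the other 11. It shared 206 of the 300 probe sets with its own highest 300, where the other arrays shared 259 to 275. It was the lowest array for 117 of the 300 and the highest for 64, and over all 10795 probe sets it was the lowest for 17.6% and the highest for 14.5%. Ranking without it replaced 8 of the 300 probe sets. The lowest and highest values below include it. For 40 of the 300, leaving it out moved the lowest or the highest by over 1.5 times, and for those whose range is printed the value without it follows. The last 4 arrays, CT22, CT2, CT6 and CT10 of the second cycle, also differed from the earlier ones. Their median deposited intensities were 93.99 to 100.5, against 76.46 to 88.25. Each was the lowest for 10.6% to 17.6% of all probe sets, against 5.13% to 7.30%. Each was the highest for 10.4% to 14.5%, against 4.96% to 11.9%, so these ranges overlapped.

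Skin, bone and connective tissue, and immune genes were high on the CT6 array of the second cycle. Over whole lists, with 1 probe set a gene among those that passed the filter of the rhythm fit, 29 skin genes lay 2.33 above their own means there on the log2 scale, 21 bone and connective tissue genes 1.79 and 13 immune genes 1.37. The array was the highest of the 12 for 22, 14 and 11 of them. The next highest array was at 1.29, 0.70 and 0.33, and the shifts were of similar size after median centring (2.25, 1.75 and 1.33) and without normalization (2.37, 1.86 and 1.45). The filter goes by the highest value over the 12 arrays, so a gene bright only on this array could enter through it. It kept 29 of 31 measured skin genes, 21 of 24 of bone and connective tissue and 13 of 16 immune genes. The shifts and counts are therefore partly selected on the array they describe. Other lists of surrounding or supporting tissue lay below their own means on that array. These were 11 erythrocyte genes (by 0.84), 8 of choroid plexus and ependyma (0.75), 4 of pigment cells (0.66), 16 of glia (0.32) and 21 of muscle (0.16). The 11 vessel and meninges genes lay 0.50 above, and the highest other array was at 0.57. The part of these lists in the results below was not tested.

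The 2 genes that mark the tissue were both outside the 300. aanat2, the enzyme that sets the rate of melatonin synthesis, was at rank 562, with a lowest intensity of 285, a median of 1478 and a highest of 2658. This rank averages over a level that changed with circadian time. In the limma rhythm fit described below aanat2 was called, 6.38-fold from trough to peak, with its peak at CT14.6 (adjusted p = 0.0259). It was among the highest 300 on 5 arrays, and its best rank on any array was 183. otx5, a transcription factor of pineal photoreceptors, was at rank 3454, with 98.8, 195 and 273. exorh, the pineal rod-like opsin, was next to aanat2 at rank 564 with 695 to 2203, and crx, the transcription factor of photoreceptor cells, was at rank 181 with 1634 to 4313.

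By the gene lists used here, 67 of the 300 probe sets (22.3%) were translation genes, 29 (9.67%) metabolic, 21 (7%) neuronal, 20 (6.67%) nuclear, 19 (6.33%) photoreceptor and pineal, 11 (3.67%) cytoskeletal, 8 (2.67%) of surrounding or supporting tissue and 7 (2.33%) of protein turnover. The same lists held 1.54%, 2.26%, 1.07%, 1.91%, 0.963%, 0.547%, 1.82% and 2.64% of all 10795 probe sets. A probe set may count in more than 1 class, as 5 did, and 123 were on no list. After the names of these 123 had been seen, roles were given by hand to 71 of them, which left 52 without a class. The shares describe the ranking and were not tested.

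The 20 highest ranks held 18 genes. COX1, the mitochondrially encoded catalytic subunit of cytochrome c oxidase, took ranks 1, 2 and 4. The probe set at rank 1 was the highest on every array, so quantile normalization gave it 1 value, 30086, and its spread is read from the deposited intensities, which ran from 23233 to 48830. After median centring its SD was 0.24. rps2, of the small ribosomal subunit, was at rank 3 with 13377 to 19891, and mdh1aa, a cytosolic malate dehydrogenase, was at rank 5 with 8206 to 14871. fth1a, a ferritin chain that stores iron, was at rank 6 with 9053 to 12627 and a small spread of 0.18. cfi, the complement factor I gene, was at rank 7 with a lowest intensity of 7261, a median of 10809 and a highest of 13377. aplp2, of the amyloid precursor family of membrane proteins, followed at rank 8 with 7359 to 11754. The remaining ranks to 20 were rps15, gngt1, rpl38, oaz1b, rps27a, rps16, rack1, eef1a1l1, rplp0, rpl3, rbp4l and tmsb4x. Of these 18 genes 9 act in translation (rps2, rps15, rpl38, rps27a, rps16, eef1a1l1, rplp0, rpl3 and, assigned by hand, rack1), oaz1b controls polyamine synthesis and tmsb4x binds actin monomers.

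Some phototransduction genes reached far up the order. In this cascade an opsin activates transducin, transducin relieves phosphodiesterase 6 of its inhibitory subunit, and the loss of cyclic GMP closes a channel; guanylate cyclase then restores cyclic GMP. Of 33 measured genes of the cascade and the outer segment, 11 were in the 300, and the median best rank of the 33 was 639. gngt1, the transducin gamma subunit, was at rank 10 with a lowest intensity of 7127, a median of 9897 and a highest of 10425. gnb1b, the beta subunit, was at rank 27 with 5165, 7359 and 9221, and gnat1, the rod alpha subunit, was at rank 183 with 1896, 2397 and 3755. The cone alpha subunit gnat2 was outside, at rank 509, with 548 to 1462. All 3 transducin members of the 300 were within each array's highest 300 on all 12 arrays.

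pdcb, a phosducin that binds the transducin beta and gamma subunits, was at rank 28 with 4313, 7359 and 8392 (lowest 6567 without the CT6 array of the second cycle). Of the phosphodiesterase subunits, pde6c, the cone catalytic subunit, was at rank 32 with 2843, 6661 and 9053 (lowest 5195 without that array). pde6ha, a cone inhibitory subunit, was at rank 38 with 3591, 6159 and 11754. The related gene pde6hb was at rank 214 and varied far more, from 606 through a median of 1870 to 5404, with an SD of 0.94. pde6a, the rod catalytic subunit, was at rank 267 with 1198 to 3027. pde6hb and pde6a were among the highest 300 on only 6 and 7 of the 12 arrays.

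gucy2f, a photoreceptor guanylate cyclase, was at rank 107 with 1825 to 4776 (from 2746 without that array), rcvrn2, a recoverin that senses calcium, at rank 292 with 1051 to 2644, and unc119.2, of a family that carries lipid-modified photoreceptor proteins, at rank 177 with 1548 to 3909. A single opsin of 10 measured was in the 300. This was opn1lw1, the red cone opsin, at rank 113, with 1183, 3913 and 8542. Zebrafish have a close copy of this gene, opn1lw2, and the probes may bind both. Its level changed with circadian time, as described below.

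Genes of vitamin A handling supply the opsins with their chromophore. Of 12 measured, 4 were in the 300, and the median best rank of the 12 was 1295.5. The 4 were at ranks 19 (rbp4l), 77 (stra6), 124 (rbp4) and 125 (rpe65a). rbp4l, related to the retinol carrier of blood, ranged from 5342 through a median of 8025 to 12223. stra6, the cell surface receptor for retinol-binding protein, ranged from 1829 to 5767 (from 3117 without that array), and rbp4, the carrier itself, from 1813 to 7261. rpe65a, the isomerase that regenerates the chromophore, ran from 699 (2053 without that array) through 3050 to 7979, an SD of 0.97. Of the melatonin and serotonin genes, 2 of 9 measured were in the 300. tph2, tryptophan hydroxylase, which starts serotonin synthesis, was at rank 57 with 2624, 5542 and 6010 (lowest 4286 without that array). ddc, the decarboxylase of the next step, was at rank 51 with 3129, 5315 and 7190. aanat2, which acts later in the pathway, and tph1a, at rank 503, were outside. Of 18 measured transcription factors on the list, 2 were in the 300, and the median best rank of the 18 was 2972.5. The 2 were crx and isl1a (rank 217, 960 to 3702, and from 2087 without that array). isl1a, a homeodomain factor, was added by hand. So was asip2b (rank 111, 1647 to 4400, and from 2799 without that array), an agouti-related signal known from the zebrafish pineal gland. nr2e3, a rod transcription factor, was just outside at rank 306.

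**Figure D2:**
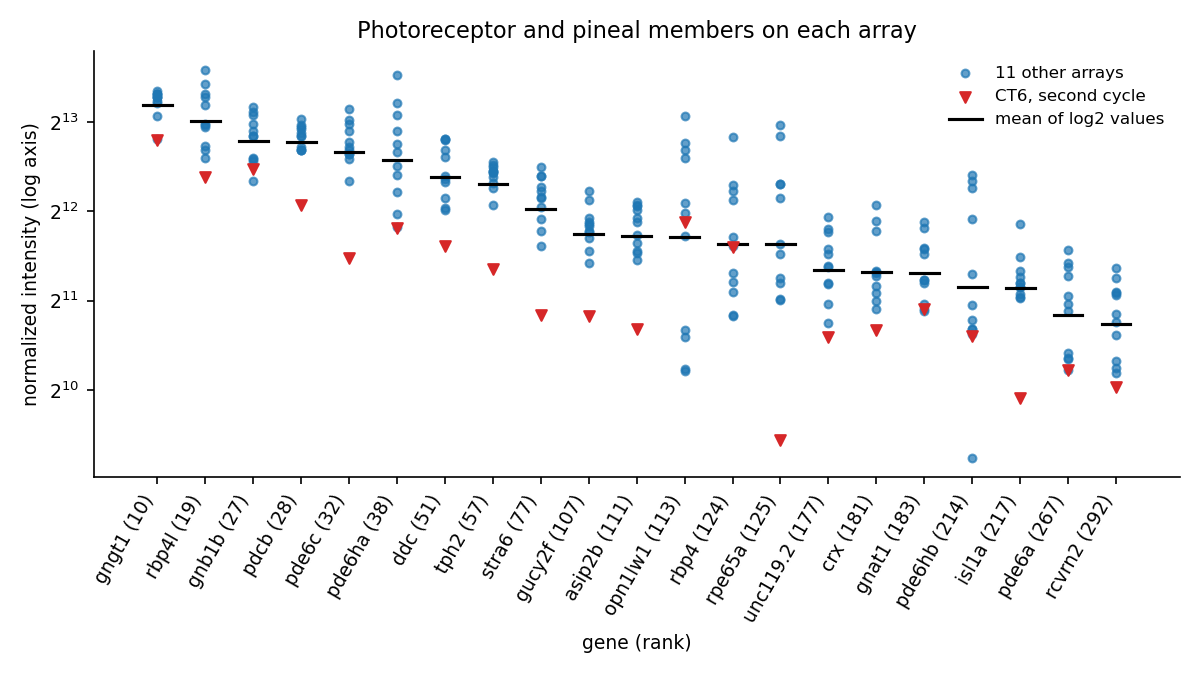
The normalized intensity (vertical axis, log scale) of the 21 photoreceptor and pineal members, hand-assigned ones included, on each of the 12 arrays, in order of rank. The red triangle is the CT6 array of the second cycle, which was the lowest of the 12 for 15 of the 21, and the line is the mean of the log2 values.

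The rank of these genes depends on the probe set. 67 of the 293 genes have at least 1 other probe set outside the 300, 91 probe sets in all, at a median rank of 3081. For pde6ha, the second probe set was at rank 4457, for gucy2f at rank 7017, for ddc at rank 7664 and for rpe65a at rank 3786. The 2 probe sets of ddc differed by 7.13 in mean log2 intensity. Other named genes showed the same: the second probe set of aplp2 was at rank 6384, a difference of 7.42. Those of isl1a, rcvrn2, ca2 and kif20a were at ranks 5983, 5170, 2321 and 8211. For tubb2b and tubb4b, by contrast, both probe sets were in the 300.

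Genes on the neuronal lists covered synaptic release, the axon skeleton and secretory granules. A place on these lists does not show that the signal came from neurons, which was not tested. Of 22 measured genes of synaptic vesicles and release, 7 were in the 300: sv2bb, a vesicle protein, at rank 65 (2242, 4998 and 5610 as lowest, median and highest, and 4019 as lowest without that array), the calcium sensors syt5a and syt1a at ranks 82 and 148, the fusion protein snap25b at rank 145, the vesicle proteins sypb and sypa at ranks 159 and 231, and the proton pump subunit atp6v0cb at rank 208. Of 63 measured cytoskeletal and axonal genes, 12 were in the 300. calm3b, a calmodulin, led them at rank 22 with 4521, 8446 and 11754. inaa, an intermediate filament of neurons, was at rank 98 with 1754 to 4594 (from 3342 without that array), and sncb, beta-synuclein, at rank 110 with 2303 to 5668. Granule proteins added by hand were scg3 (rank 62), scg2a (66), cpe (129), scg5 (175) and pcsk1nl (189).

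Oxidative phosphorylation was the longest metabolic list among the 300, and also the one with the most measured genes. With COX1 added by hand, 15 of its 89 measured genes were in the 300. Apart from COX1 these included atp5mf of the ATP synthase at rank 34 (4776 to 8542), cox4i2 at rank 95 (2104 to 4489, and from 3282 without that array) and cox7c at rank 109 (2498 to 4478). Of 36 measured glycolysis genes, 5 were in the 300: gapdhs (rank 49, 2814 to 7521), aldocb (102, 2371 to 5051), pkma (154, 1758 to 3873), eno1a (240) and tpi1b (261). aldocb is the brain aldolase. Of 43 measured genes of lipid and redox metabolism, a list with some entries added by hand, 7 were in the 300. One of these, elovl4b, which makes very long fatty acids found in photoreceptor membranes, was at rank 72 with 2701 to 6060. mat2aa, added by hand, was at rank 26 with 2462, 6960 and 10969 (lowest 6293 without that array). It makes S-adenosylmethionine, the methyl donor of the last step of melatonin synthesis.

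Ribosomal proteins made up the largest single list. Of 81 measured cytosolic ribosomal protein genes, 61 were in the 300, and 49 of their 62 probe sets were within the highest 300 of all 12 arrays. Their median SD was 0.27.

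Of the genes listed for surrounding or supporting tissue, 8 were in the 300. These were 2 of 12 measured erythrocyte genes, 2 of 16 immune, 3 of 16 glial and 1 of 8 of choroid plexus and ependyma. Most members of these lists ranked lower, with median best ranks of 3826.5, 4563.5, 1082 and 3004. The red cell genes cahz, alas2 and slc4a1a were at ranks 2161, 3654 and 3817. hbaa1, an alpha globin of red blood cells, was at rank 56 with 2469, 5424 and 8867 (lowest 3840 without the CT6 array of the second cycle), and ca2, a carbonic anhydrase that red cells share with other cells, at rank 152 with 1507 to 5009. cd74a, the invariant chain of antigen-presenting cells, was at rank 173 with 1135, 2240 and 10425 (highest 5127 without that array), and b2m, part of class I molecules, at rank 174 with 1734 to 4286. clu, clusterin, was at rank 29 with 2365, 7343 and 9618 (lowest 5573 without that array), and its SD fell from 0.53 to 0.23. The glial genes glula (rank 93), slc1a2b (99) and id1 (118) take up or convert glutamate, or restrain differentiation in the case of id1, and glia also belong to the gland. No member of the skin, bone and connective tissue, muscle, vessel or pigment cell lists was in the 300. The highest ranks of these lists were 351 for skin (krt5, a keratin, 136 to 9322), 740 for bone and connective tissue (sparc, 571 to 1888), 782 for vessel and meninges, 2284 for muscle and 5963 for pigment cells. The highest values of krt5 and sparc were both on the CT6 array of the second cycle, and were 5610 and 1293 without it. On that array krt5 was at rank 15, and 12 probe sets of the skin and bone lists, of col1a2, krt91, postnb and col10a1a among others, were in its own highest 300. krt5 was in the highest 300 of 6 of the 12 arrays. How much of the signal at these ranks came from surrounding tissue was not tested.

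The spread between arrays was smaller among the 300 than among all probe sets. The median SD over the 12 arrays was 0.30 on the log2 scale for the 300 and 0.48 for all 10795, and without the CT6 array of the second cycle it was 0.24 and 0.45. The median SD was 0.31 at ranks 301 to 1000 and 0.32 at ranks 1001 to 3000, so the difference lay mainly against the dimmer probe sets from rank 3001, at 0.60. For 148 of the 300 (49.3%) the highest array was less than 2-fold above the lowest, against 20.2% of all. 18 of the 300 (6%) exceeded 4-fold, against 39.9%. The 2 arrays of the same circadian time differed nearly as much as arrays of different times: the pooled SD within times had a median of 0.28, and for 128 of the 300 (42.7%) it was at least as large as the SD over all 12 arrays, against 48.7% of all probe sets. The arrays of 1 time are separate pools on separate days, so this spread holds biological and technical parts.

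The 10 smallest spreads, leaving aside the probe sets of COX1 at ranks 1 and 2, whose values quantile normalization fixed on at least 11 arrays, belonged to eef1a1l1 (0.10), ywhaba (0.11), atp6v0ca (0.12), rps26, edf1 and fthl27 (0.13 each), rps23, thrap3b and hmgn1a (0.14 each) and pnrc2 (0.15). After median centring these 10 ran from 0.15 to 0.29, and 3 of them were still among the 10 smallest. The names at this end therefore depend on the scaling. eef1a1l1, rps26 and rps23 act in translation, fthl27 is a ferritin chain and atp6v0ca a proton pump subunit. The 10 largest belonged to si:ch211-80h18.1 (1.34), epd (1.21), meltf (1.12), opn1lw1 (1.03), rpe65a (0.97), pde6hb (0.94), cd74a (0.84), btf3 (0.75), zgc:193593 (0.71) and kif20a (0.67). epd is ependymin, a secreted protein of the fish brain and meninges, and meltf is a membrane-bound transferrin.

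**Figure D3:**
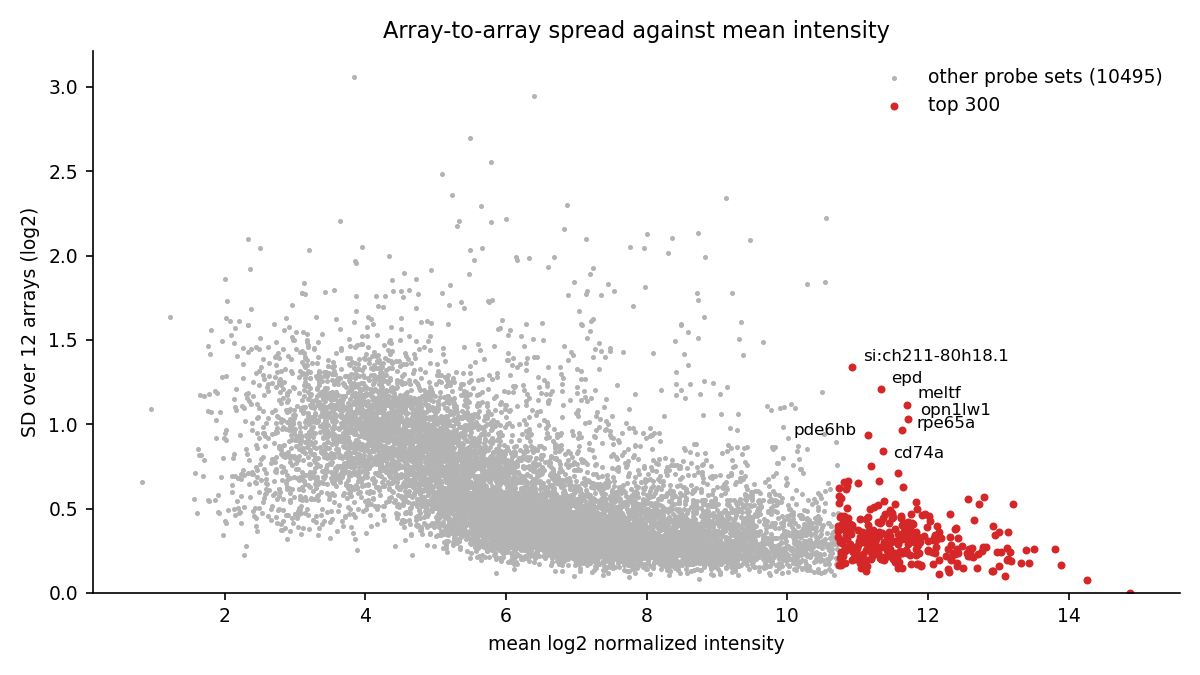
The SD of log2 intensity over 12 arrays (vertical axis) against mean log2 normalized intensity (horizontal axis) for all 10795 probe sets with 1 gene symbol. The 300 are in red at the right, most between 0.18 and 0.50, and 7 with large spread are named.

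Several of these spreads were set by the CT6 array of the second cycle. si:ch211-80h18.1 was at 116 on that array against a median of 2343, and its SD fell to 0.40 without it. epd was at 369 there against a median of 2758 (0.85 without it), meltf at 497 against 4653 (0.73 without it) and rpe65a at 699 against 3050 (0.70 without it). cd74a moved the other way, to 10425 against a median of 2240, and its SD was 0.57 without the array. For opn1lw1, pde6hb and btf3 the SD did not fall, at 1.07, 0.95 and 0.77.

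Of all 300 probe sets, 189 lay below their own means on that array and 111 above, with a mean deviation of -0.22 on the log2 scale. Besides the skin, bone and immune genes given above, some groups of the 300 lay mostly on 1 side of their means there. The 11 phototransduction members were all below their own mean there, by 0.66 on average on the log2 scale. The 7 synaptic members were all below, by 0.90, as were the 5 granule members, by 0.78, and hbaa1 and ca2, by 0.99. 16 of the 17 probe sets of oxidative phosphorylation were below, by 0.36 on average. The ribosomal protein genes were above by 0.42 on average, 57 of 62 of them, and this array was the highest of the 12 for 42. Each of these directions was the same after median centring and without normalization. For the ribosomal list, the highest other array was at 0.094, at 0.19 after median centring and at 0.14 without normalization. Other lists were split on that array: of 11 actin and tubulin probe sets, 6 were below and 5 above, and of 5 chaperones 2 and 3.

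**Figure D4:**
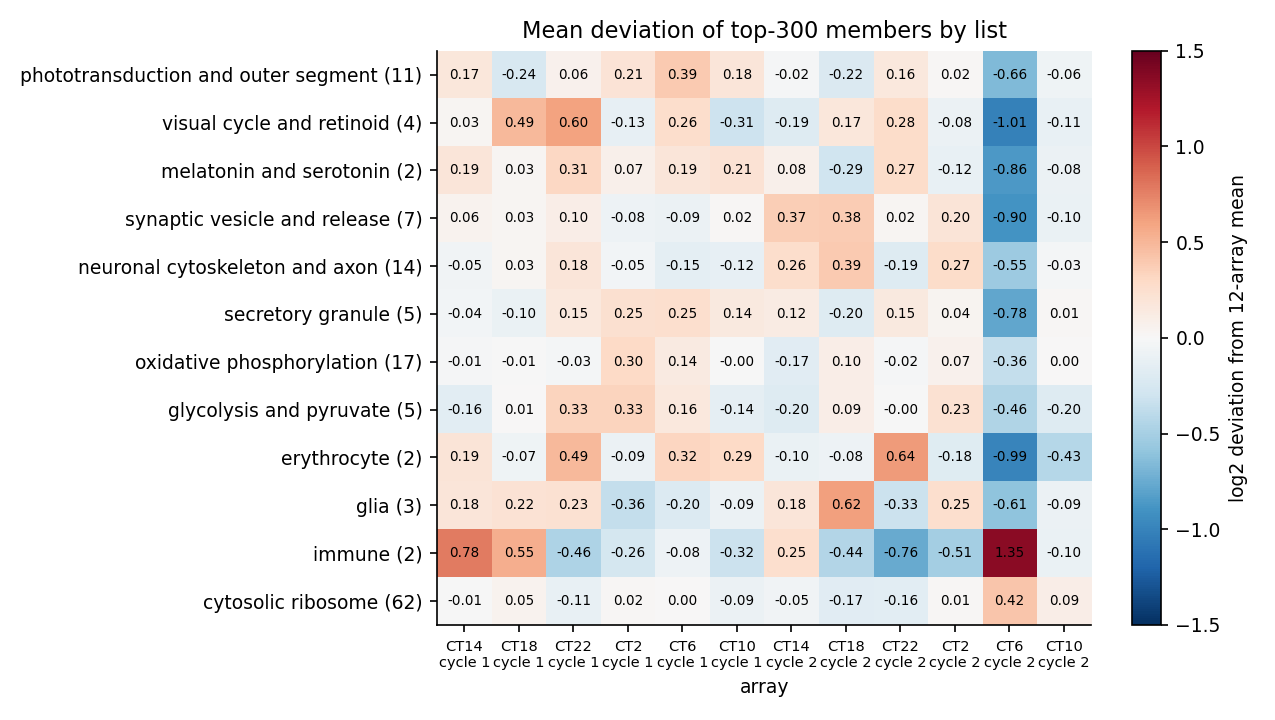
The mean log2 deviation from the 12-array mean of the members of 12 lists (rows, number of probe sets in parentheses) on each array (columns), printed in each cell. The column for CT6 of the second cycle is negative for 10 of the 12 lists and positive for the immune members and the ribosomal proteins, where it is the highest of all arrays.

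The samples were taken to follow a daily rhythm, so the same fit was read for the 300. A cosine and sine of 24 h were fitted with limma to 11625 probe sets, of which all 300 were part. At a false discovery rate of 0.05, 60 were called (0.516%), and 3 of the 300 (1%), opn1lw1, rpe65a and csnk1db. At an unadjusted p under 0.05 there were 34 of the 300 (11.3%) and 10.1% of all. The median fitted fold from trough to peak was 1.28 in the 300 and 1.40 in all. The study used another measure and threshold, a Fourier score. By it, guk1b, mid1ip1l and zgc:193593, members of the 300, were circadian both on the microarrays and by RNA-seq. The limma fit did not call them (adjusted p = 0.0989 for guk1b and 0.0717 for zgc:193593). mid1ip1l was not called at a false discovery rate of 0.10 either.

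opn1lw1 was at 6974 and 3376 at CT2 of the first and second cycle, 8542 and 3781 at CT6, 6193 and 6608 at CT10, 4374 and 4045 at CT14, 1183 and 1634 at CT18 and 1550 and 1207 at CT22. The arrays of CT18 and CT22, in the subjective night, lay below all others. Those of CT14, also in the subjective night, lay above the second-cycle arrays of CT2 and CT6. The curve fitted by limma peaked at CT7.89, 5.50-fold above its trough (adjusted p = 0.0259). rpe65a was at 2933 and 2053 at CT2, 2346 and 699 at CT6, 2077 and 2448 at CT10, 5051 and 3168 at CT14, 7979 and 7359 at CT18 and 5051 and 4521 at CT22. It was highest at CT18 in both cycles, and its curve reached 5.02-fold at CT18.4 (adjusted p = 0.0253). Its other probe set, at rank 3786, peaked at CT18.5 and did not pass (adjusted p = 0.112).

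csnk1db, a casein kinase 1 delta of the family that acts on the clock's Period proteins, was at 1361 and 1303 at CT14, 2242 and 1979 at CT18, 2398 and 2636 at CT22, 1723 and 1922 at CT2, 1443 and 1392 at CT6 and 1107 and 1462 at CT10. It rose through the subjective night, 2.00-fold by the fitted curve, which peaked at CT21.7 (adjusted p = 0.0401). After median centring it did not pass (adjusted p = 0.102). The 11 phototransduction members of the 300 gave no call, and their median fitted fold was 1.49. The second probe set of gnat1, at rank 2500, was called (fold 4.52, adjusted p = 0.0433), and the one at rank 183 was not (fold 1.49, adjusted p = 0.569).

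The calls were not stable when 1 array was left out. Without the CT18 or the CT22 or the CT10 array of the first cycle, or the CT18 array of the second, none of the 300 was called by limma at this rate, and without the CT22 or the CT10 array of the second, 1 was. Without the CT6 array of the second cycle there were 6, guk1b, gnb1b and zgc:193593 being added. Leaving out 1 array lost the call for opn1lw1 in 7 of 12 cases, for rpe65a in 5 and for csnk1db in 10.

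**Figure D5:**
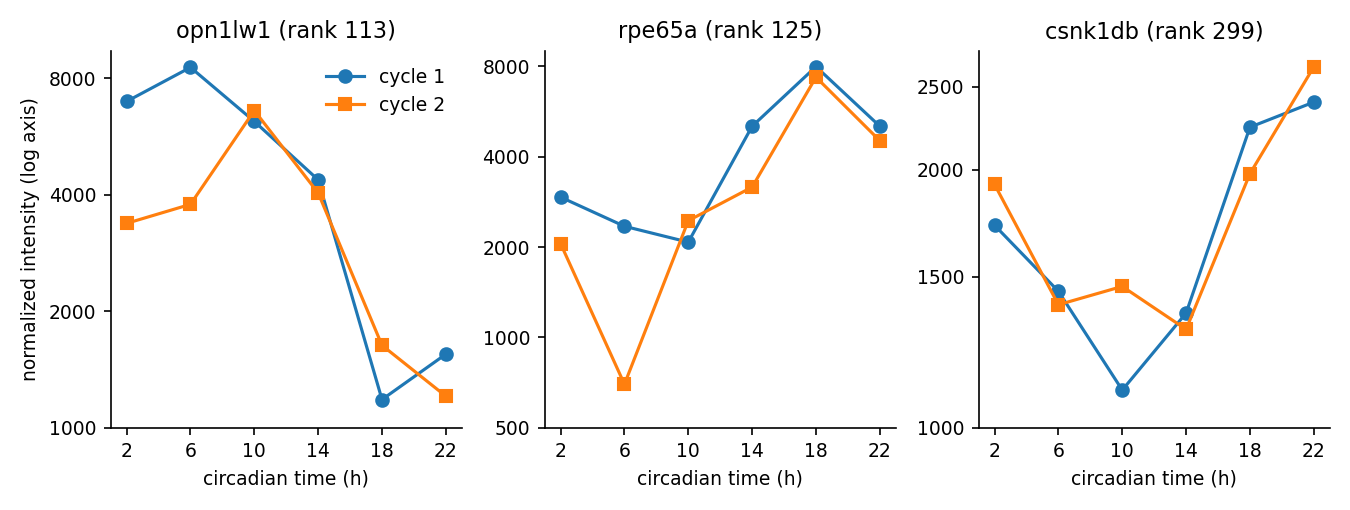
The normalized intensity (vertical axes, log scale) of opn1lw1, rpe65a and csnk1db on the 12 arrays against circadian time, with the 2 daily cycles as separate lines. opn1lw1 is lowest at CT18 and CT22 in both cycles, rpe65a highest at CT18 and csnk1db highest at CT22.

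The second cycle was set against the first over all times, 6 arrays against 6. By limma 0 of 11625 probe sets (0%) passed a false discovery rate of 0.05, and 0 of the 300. At an unadjusted p under 0.05 there were 30 of the 300 (10%) and 829 of all (7.13%). The median absolute difference was 0.15 in the 300 and 0.18 in all. khdrbs1a at rank 144, an RNA-binding protein, had the smallest p of the 300, with a mean log2 intensity of 11.30 in the first cycle and 11.78 in the second (adjusted p = 0.635). This gene has 6 probe sets, at ranks from 85 to 3381, and the shifts of its other probe sets are not given here. The cycle is also the order in which pools were taken, and the 2 cannot be told apart.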

How the data were processed

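The authors deposited signal intensity on a linear scale for 12 arrays, made with Affymetrix GCOS and MAS5 per the labels; versions are not given in the sources used here. Of the probe sets, 115 controls were left out, and of the 15502 others, 10795 have 1 gene symbol in the platform's annotation, 135 several and 4572 none. Intensities were transformed to log2, quantile-normalized and fitted with limma 3.58.1 in R 4.3.3, with the variance trend of eBayes and Benjamini-Hochberg adjustment, on 11625 probe sets, after the 25% with the lowest maximum over the 12 arrays had been removed. Ranks and spreads were computed with pandas 2.3.3 and numpy 2.4.6 in Python 3.11.15. The members and the gene lists were chosen with earlier results of these data known, and 69 entries were added after the names of the members had been seen. Genes named are the 20 highest, the photoreceptor, pineal and surrounding-tissue members, leading members of other lists, the 10 largest and smallest spreads and the called ones; some leading members are given by count only. The scripts were tested on simulated data. Depth has no meaning for arrays, whose number, 12, limits the precision. Nothing shows that the pools of 1 time are more than separate samples, so p-values measure only spread between pools. In the rhythm fit this spread also holds departures of the times from the fitted curve and any shift between the cycles. The cycle numbers pair no samples: over 15 pairs of times the correlations of the cycle differences ran from -0.21 to 0.13, and 2 were above 0.1. Alternatives were other normalizations, offsets, filters, ranking rules, models and each array left out.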

Additional observations from a re-analysis of the deposited data

Results flagged for a closer look

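Probe sets without a single gene symbol were left out of the ranking, and 91 of them had a mean at or above that of rank 300. They would have taken 91 of the first 391 places, 81 of them with no symbol in the annotation and 10 with several, and were not analysed further.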

How the results depend on the processing

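The list of 300 kept 290 to 299 of its probe sets under the other normalizations and ranking rules, and 292 to 298 when 1 array was left out; class counts stayed within 1.5 times of those reported. aanat2 stayed outside the 300 under each, at rank 364 by the median over arrays and 423 by the linear mean. The rhythm calls moved more. Over all probe sets they were 60, 29 after median centring, 17 without the variance trend, 103 at a false discovery rate of 0.10 and 12 with circadian time as a factor; among the 300 they were 3, and 2 after median centring, 0 without the trend, 5 at 0.10 and 0 with the factor. Leaving out 1 array gave 14 to 103 over all probe sets and 0 to 6 among the 300, the lowest over all without the CT10 array of the first cycle and the highest without the CT6 array of the second. With the daily cycle as a replicate block the rhythm calls were 53 and 4, zgc:193593 being added, and with the last 4 arrays as a block, chosen after seeing the data, 40 and 3. The cycle calls were 0 to 4 over all probe sets when 1 array was left out, the 4 without the CT22 array of the second cycle. The cause was not tested.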
